A study of Mus musculus with 6 samples.

Results

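The genes described here encode the proteins of the cytosolic ribosome. They were taken from the count table by symbol, as names made of Rpl or Rps followed directly by a number together with Rplp0, Rplp1, Rplp2 and Rpsa, after 10 Rps6k kinase genes and 7 names ending in -ps and a number had been dropped. This gave 86 of the 22000 symbols. A gene was tested when it had at least 1 CPM, its reads scaled to a fixed library total, in each mouse of either group, which 82 of the 86 did, among 13185 genes tested in all. The 82 comprised all 31 genes listed for the core of the small (40S) subunit, all 46 listed for the core of the large (60S) subunit, 4 paralogs, and Rps19bp1, which meets the naming rule but encodes a nucleolar partner of the small subunit protein Rps19 and not a ribosomal protein. Fau and Gnb2l1 (also named Rack1) encode further proteins of the ribosome and lie outside the naming rule.

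A ribosome is built in the nucleolus from ribosomal RNA and roughly equal numbers of each core protein, and a core protein made in excess of its partners is degraded. The mRNAs of these proteins are among the most abundant of a cell. They begin with a run of pyrimidine bases at the capped 5′ end, the terminal oligopyrimidine (TOP) motif, through which the kinase complex mTORC1 sets how strongly they are translated. In neurons, part of this mRNA pool is carried into dendrites and axons.

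RNA-seq was carried out on the prefrontal cortex (PFC) of 3 control mice and 3 early life stress (ELS) mice, with 1 library per mouse. All were wild-type male C57BL/6N mice aged 9 weeks. ELS mice were housed singly under a filter cap from weaning, whereas control males shared a cage. Single housing and the filter cap therefore cannot be told apart. The study's methods state that each housing was maintained up to dissection, and that behaviour was assessed before it. By the study's methods control and ELS mice came from litters of the same mother, and which mice were littermates is not given in the sources used here. PFC is a mixture of cell types, and in such bulk samples fewer cells of a type and less RNA per cell cannot be told apart.

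Total counts ran from 28405795 to 35241743 per mouse, and the 82 genes together took between 477011 and 605056 of them, so counting error was small for most of them. The 10 neuronal markers were all expressed and summed to between 13326 and 14721 CPM in the 6 mice. Control mouse 3 stood apart from the other control mice: the chi-square of its counts, divided by the degrees of freedom, was 20.1 against mouse 1 and 18.9 against mouse 2, compared with 6.89 between mice 1 and 2. Fold changes fitted without it are therefore given as well, in a later paragraph. Among ELS mice, mouse 1 gave 12.7 against mouse 2 and 9.125 against mouse 3, compared with 6.39 between mice 2 and 3. All 13 genes encoded by the mitochondrial genome had 0 reads in the table.

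The sequence at the 5′ end was examined first, because it is what these genes are best known to share. RefSeq start sites on GRCm38.p6 were given for 66 of the 86 genes. The letters CTCTTT, a short stand-in for the TOP motif, were found on the gene's own strand within 50 bases of the start in 19 of 66 (28.8%), against 4.68% of 27025 genes. On the opposite strand the same letters were found in 1 of 66 (1.52%), against 4.46% of all genes. A run of at least 10 pyrimidines lay in the same window in 44 of 66 (66.7%), against 20.6% of all genes, and the longest run had a median of 10 bases against 7. The 6 windows of 30 bases below are those in which CTCTTT, in capitals, began within 5 bases of the annotated start, and they show how the pyrimidine run continues on one or both sides of these letters. They lie at chr7:45718062-45718091 (plus strand) for Rpl18, chr7:4792955-4792984 (plus) for Rpl28, chr2:39005112-39005141 (minus) for Rpl35, chr10:128626482-128626511 (minus) for Rps26, chr4:86857348-86857377 (minus) for Rps6 and chr7:3704028-3704057 (plus) for Rps9.
Rpl18: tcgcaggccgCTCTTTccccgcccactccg
Rpl28: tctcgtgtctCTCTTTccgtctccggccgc
Rpl35: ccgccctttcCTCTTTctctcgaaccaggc
Rps26: ccgccggatcCTCTTTcgagtcttggctcc
Rps6: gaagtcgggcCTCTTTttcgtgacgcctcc
Rps9: cgccttgtctCTCTTTgtctcgggcctgag

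Further letters were searched from 250 bases before the start to 50 after it, on both strands. CCGGAAG, the core bound by ETS factors, was present in 26 of 66 genes (39.4%), against 9.93% of all genes. AAGATGGC, bound by YY1, was present in 6 (9.09%), against 3.19%. CTCGCGAG, a palindrome at the centre of the motif bound by Banp, was present in 7 (10.6%), against 1.04%. None of these holds CTCTTT or another of them, although matches can share a few bases, and each match is a description of the sequence alone.

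Most of the genes had high levels. The mean CPM over the 6 mice ran from 14.9 for Rps27l to 493 for Rpl3, with a median of 202 against 30.4 over all genes tested. Per kilobase of transcript, the highest level was 969 CPM for Rplp1, an acidic protein of the stalk that recruits elongation factors. Next came Rps15 with 831 CPM per kilobase, a protein of the 40S head, and Rps21 with 780, both of the small subunit. The lowest values per kilobase among the genes tested were 21.1 for Rps19bp1, 29.8 for Rps27l and 33.8 for Rpl36al, so that no core gene lay at the bottom of the range. The lowest core gene was Rps20 at 42.6 CPM per kilobase, for which the length used was that of a transcript of 3706 bases. Each level per kilobase rests on a chosen transcript of its gene. Levels of different genes are uncertain to the extent that copies share their sequence. In 75 of the 86 genes some stretches of 100 transcript bases occurred in another annotated gene, with a median of 41% of stretches shared, and this share reached 98.4% in Rps27 and 91.6% in Rpl10. Only uniquely mapped reads had been counted, and how many reads this left out was not measured.

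**Figure D1:**
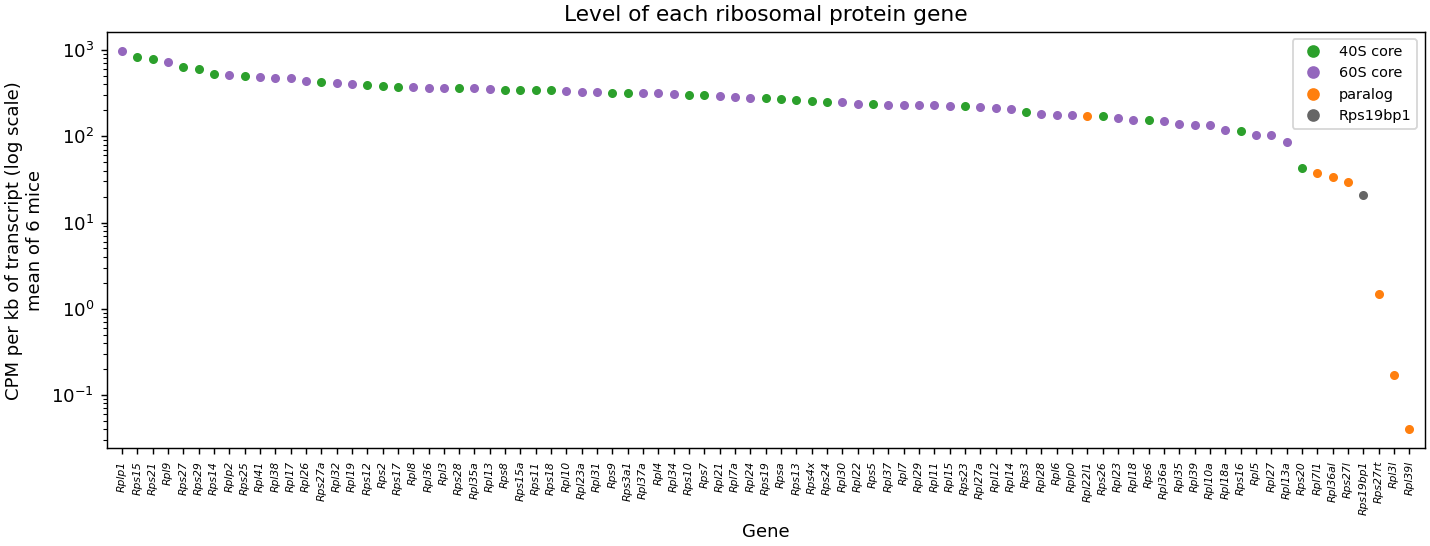
Mean level over 6 mice of each ribosomal protein gene with a read, in CPM per kilobase of transcript on a log scale, ordered from highest to lowest, with the gene on the x axis and colour for its class. All core genes of both subunits (green, purple) but Rps20 lie between 86.4 and 969 CPM per kilobase, while the paralogs (orange) other than Rpl22l1 and Rps19bp1 (grey) lie below them.

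The comparison of ELS with control mice asked whether the mRNA of the translation machinery differs with social isolation. Among the 82 genes, none was called in edgeR's quasi-likelihood test, where a call needs an absolute log2 fold change above 0.3 as well as an adjusted p under 0.05, against 0.0152% of all genes. None had an unadjusted p under 0.05 either, against 4.23% of all genes, and DESeq2, the edgeR likelihood ratio test and limma-voom also gave 0 called genes and 0 at that unadjusted p. In no gene did the control and ELS mice fail to overlap, against 8.28% of all genes. The log2 fold changes of ELS over control ran from -0.094 for Rpl39 to 0.090 for Rps27l, with a median of -0.0047 against -0.0046 over all genes tested. All 82 lay within 0.1 of 0 on the log2 scale, which 70.5% of all genes did. A p above the threshold does not show that levels are equal, but the 95% interval of the log2 fold change lay inside -0.3 to 0.3 for 79 of the 82 genes (96.3%), against 61.4% of all genes. The other 3 were Rpl39, Rps12 and Rps27l, whose intervals reached -0.31, -0.32 and 0.37. Both counts depended on having all 6 mice. Within 0.1 of 0 were 35 of the 82 genes without control mouse 3 (56.2% of all genes), 49 without control mouse 1 (65.1%), and from 76 to 81 without any one of the other mice. The interval lay inside -0.3 to 0.3 for 40, 45 and 68 genes without control mouse 1, 2 or 3 (51.2%, 53.5% and 55.2% of all genes) and for 49, 59 and 44 without ELS mouse 1, 2 or 3 (51.4%, 48.3% and 47.2%). The standard errors, with a median of 0.097, were not smaller than those of all genes, with a median of 0.090.

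**Figure D2:**
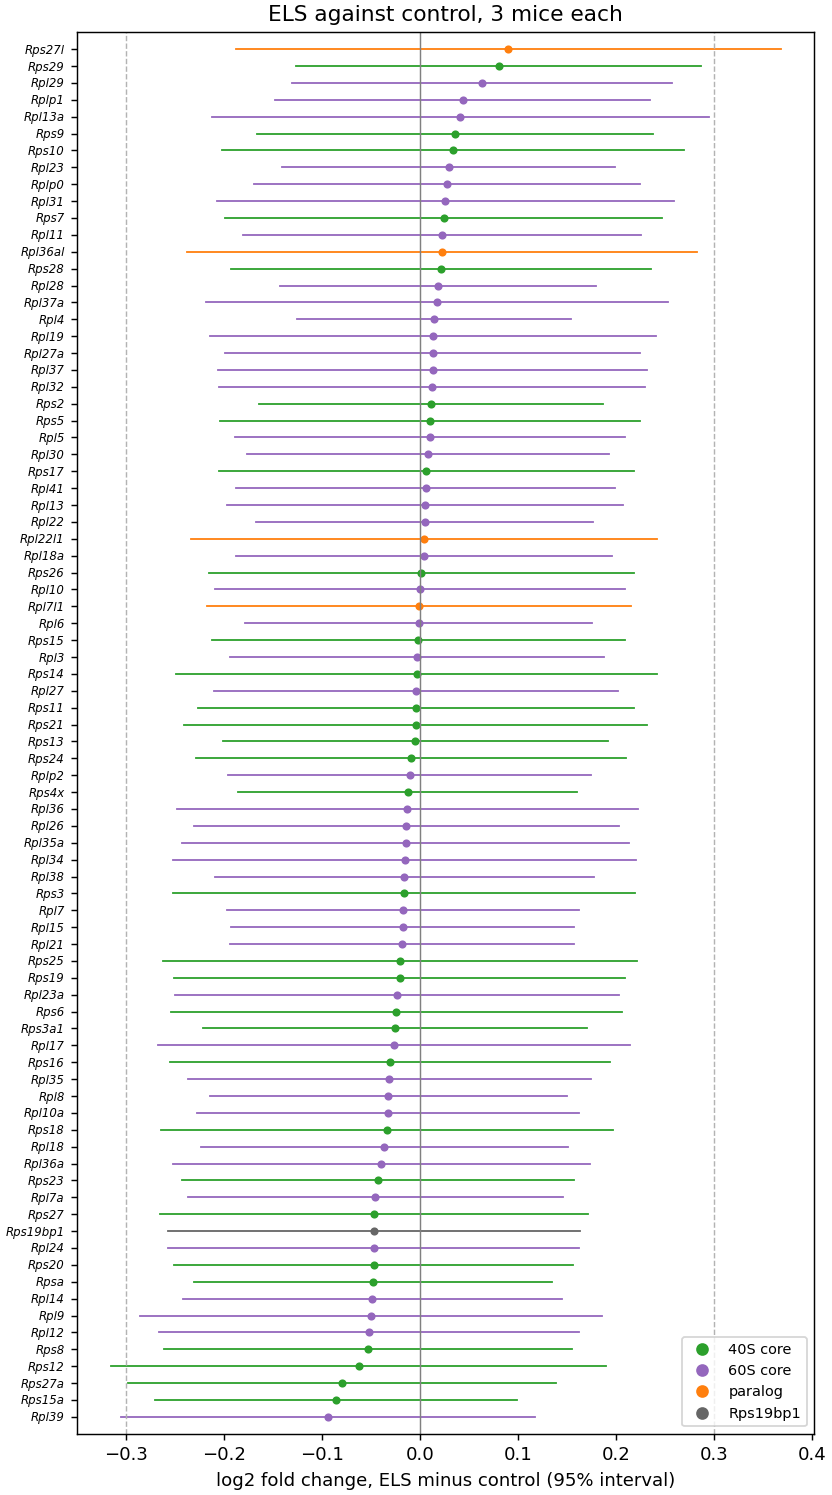
Fitted log2 fold change of ELS over control (points) with its 95% interval (bars) from edgeR's quasi-likelihood fit for each of the 82 genes, ordered by fold change and coloured by class, with dashed lines at -0.3 and 0.3. Every interval includes 0, and 3 of them cross a dashed line.

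The direction of so small a difference was not settled. Higher means in ELS mice were fitted for 32 of 82 genes (39%), against 47.5% of all genes. The fold change with the smallest unadjusted p of the 82 was that of Rps15a, a core protein of the small subunit. Rps15a had 200, 226 and 255 CPM in the control mice and 220, 204 and 219 CPM in the ELS mice, given here and below in the order of their numbers. Its ELS mice all lay inside the range of the control mice. The log2 fold change was -0.085 (standard error 0.085, unadjusted p = 0.335 and adjusted p = 1 by edgeR).

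Rpl39, a small protein lining the tunnel through which new chains leave the ribosome, had the lowest fold change. Its levels were 73.8, 83.4 and 99.1 CPM in control mice and 79.7, 75.2 and 85.2 CPM in ELS mice. All 3 ELS values again fell between those of control mice 1 and 3, with means of 85.4 ± 12.8 and 80.0 ± 5.01 CPM (SD, n = 3 each). Rps29, a zinc-binding protein of the small subunit, had the second highest fold change. It had 205, 216 and 258 CPM in control mice and 233, 219 and 266 CPM in ELS mice, a log2 fold change of 0.080 (standard error 0.095). Here ELS mouse 3 was the highest of the 6 mice and control mouse 1 the lowest.

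Rps27a, which is made as a fusion with ubiquitin, had 247, 261 and 322 CPM in control mice and 265, 235 and 285 CPM in ELS mice (log2 fold change -0.080). ELS mouse 2 was the lowest of the 6. Rpl29, a surface protein of the 60S subunit, had 121, 118 and 150 CPM in control mice and 136, 131 and 140 CPM in ELS mice (log2 fold change 0.063). Control mouse 3 was the highest for both genes, and ELS mice stayed under it.

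Across the 6 mice the genes moved together, and the largest difference lay within the control group. Control mouse 3 had the highest CPM of the 6 mice in 80 of the 82 genes (97.6%), against 25.2% of all genes tested. The other 2 genes, Rps29 and Rps2, were highest in ELS mouse 3, as were 12% of all genes. Control mouse 1 was the lowest in 62 genes, against 17.7% of all genes, and ELS mouse 2 in 14, against 12.9%. Control mouse 2 was the lowest in 5 genes (20% of all genes) and ELS mouse 3 in 1 (11.7%), while neither control mouse 3 (21.4%) nor ELS mouse 1 (16.3%) was the lowest for any of the 82. The median deviation of the 82 genes from their mean over the 6 mice was -0.16, -0.065 and 0.23 on the log2 scale in the control mice (in the order 1, 2, 3) and 0.050, -0.12 and 0.060 in the ELS mice. Summed over the 82 genes, the level was 15748, 16894 and 20415 CPM in control mice and 18147, 16193 and 18348 CPM in ELS mice. The group means were 17685 ± 2433 and 17563 ± 1191 CPM (SD, n = 3 each), a difference of -0.695% that is far smaller than the spread between mice. For single genes the highest mouse exceeded the lowest by a median factor of 1.31.

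**Figure D3:**
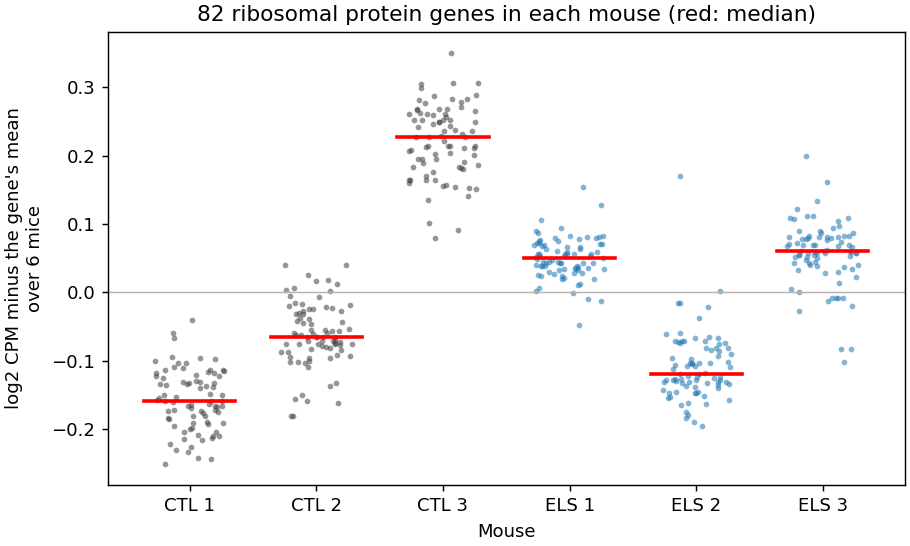
Deviation of log2 CPM from the gene's mean over 6 mice for each of the 82 genes (points) in each mouse, with control mice in grey, ELS mice in blue and the median as a red line. The cloud of control mouse 3, with a median of 0.23, lies above all others, and those of control mouse 1 and ELS mouse 2, at -0.16 and -0.12, lie lowest.

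The spread over mice was then compared before and after this shared movement was taken off. The SD of log2 CPM over the 6 mice had a median of 0.15 over the 82 genes, against 0.11 over all genes. After each mouse's median deviation had been taken off, the median SD was 0.041, and the SD was lower in 81 of the 82 genes. As the medians were computed from the same genes, part of this drop is built into the measure. The smallest remaining SD was 0.015, for both Rpl5 and Rpl10. The largest was 0.155 for Rps27l, which kept most of its SD of 0.194, as did Rps19bp1 with 0.096 of 0.11. Some core genes did so too, such as Rpl28 with 0.067 of 0.084 and Rps2 with 0.077 of 0.107. The one gene whose SD was not lower was Rpl4, a core protein of the 60S tunnel, picked out after its values were seen. Rpl4 had 470, 463 and 510 CPM in control mice and 487, 476 and 495 CPM in ELS mice, so that its highest mouse exceeded its lowest by a factor of 1.10. Its SD was 0.052 before the medians were taken off and 0.098 after. Rpl4 thus varied less between mice than any other of the 82 genes, although control mouse 3 was its highest mouse too.

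**Figure D4:**
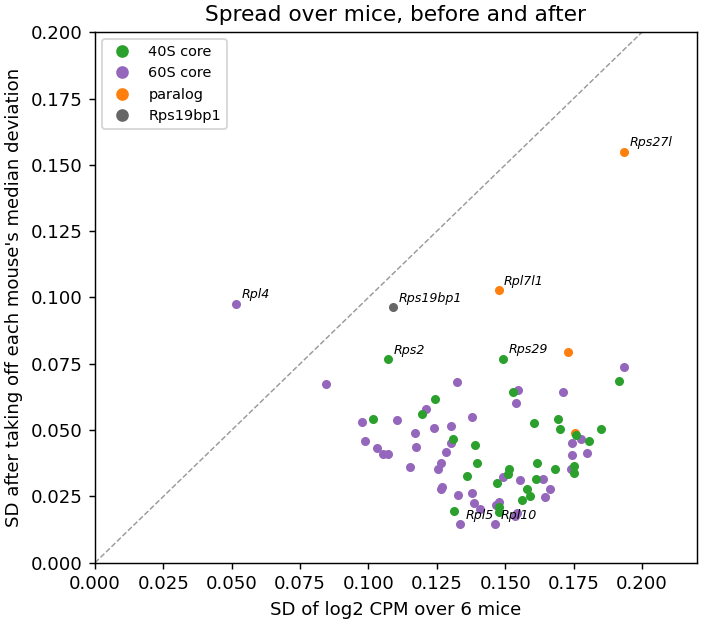
SD of log2 CPM over 6 mice for each of the 82 genes as measured (x axis) and after each mouse's median deviation over the 82 genes was taken off (y axis), coloured by class, with a dashed line of equality. Only Rpl4 lies above the line, and Rps27l has the largest SD left, at 0.155.

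The balance of the 2 subunits was nearly constant. The 31 genes of the 40S core summed to 6638, 7193 and 8758 CPM in control mice and 7677, 6840 and 7827 CPM in ELS mice. The 46 genes of the 60S core summed to 8938, 9523 and 11427 CPM in control mice and 10266, 9165 and 10331 CPM in ELS mice. The ratio of the 60S to the 40S sum was 1.35, 1.32 and 1.31 in control mice and 1.34, 1.34 and 1.32 in ELS mice, so its highest and lowest mouse differed by a factor of 1.03. The median log2 fold change was -0.013 for the 40S genes and -0.0035 for the 60S genes.

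In the small subunit, Rpsa, which is also known as a laminin receptor, had 399, 426 and 477 CPM in control mice and 440, 377 and 442 CPM in ELS mice (log2 fold change -0.048). Rps6, the protein phosphorylated by S6 kinases downstream of mTORC1 and whose 5′ window is shown above, had 115, 131 and 159 CPM in control mice and 140, 120 and 138 CPM in ELS mice (log2 fold change -0.024, standard error 0.106). The ELS mice lay within the control range for Rps6, and ELS mouse 2 lay below it for Rpsa. Rps15 had means of 416 ± 64.1 and 415 ± 24.8 CPM and Rps21 of 308 ± 52.4 and 307 ± 29.5 CPM (control and ELS, SD, n = 3 each).

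The stalk of the large subunit is formed by Rplp0 with pairs of Rplp1 and Rplp2. Rplp1 had 422, 472 and 535 CPM in control mice and 510, 450 and 512 CPM in ELS mice, and its log2 fold change was 0.043 (standard error 0.088). Rplp0 and Rplp2 had log2 fold changes of 0.027 and -0.010. The level of Rplp1 per kilobase was 5.46, 5.67 and 5.43 times that of Rplp0 in control mice and 5.58, 5.57 and 5.59 times in ELS mice. This ratio differed by a factor of 1.04 between its highest and lowest mouse, and that of Rplp2 to Rplp0 by 1.07. All 3 genes were highest in control mouse 3.

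Rpl5 and Rpl11 bind the 5S ribosomal RNA and, when ribosome assembly fails, hold back Mdm2 and so stabilise p53. Rpl5 had 190, 201 and 244 CPM in control mice and 220, 197 and 222 CPM in ELS mice. Rpl11 had 169, 179 and 216 CPM in control mice and 200, 174 and 199 CPM in ELS mice. Both were highest in control mouse 3 and lowest in control mouse 1, with log2 fold changes of 0.0097 and 0.023. Of 18 genes whose loss in humans causes Diamond-Blackfan anaemia, a disorder of red cell formation, 17 were highest in control mouse 3, and their median log2 fold change was -0.0014. Rps19, the gene of this disorder found most often, had means of 177 ± 28.4 CPM in control and 174 ± 15.3 CPM in ELS mice. Rps26 had means of 116 ± 19.3 and 116 ± 5.30 CPM.

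Of the 86 genes, 4 lie on the X chromosome, a chromosome on which males carry 1 copy. Rpl10, whose human variants have been linked to autism and intellectual disability, had 240, 257 and 313 CPM in control mice and 284, 246 and 280 CPM in ELS mice, with a log2 fold change of -0.00020. Rps4x had means of 251 ± 25.3 and 248 ± 12.4 CPM, and Rpl36a of 74.5 ± 10.9 and 72.5 ± 5.47 CPM. The median log2 fold change of the 4 genes, Rpl39 included, was -0.026.

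Paralogs can take the place of a core protein in some tissues. Of the 8 in the table, Rps27l, Rpl36al, Rpl22l1 and Rpl7l1 were tested. Rpl10l, a gene used in male germ cells, had 0 reads in every mouse, which allows a level of up to 0.0851 to 0.106 CPM (3 reads per library, counting error only). Rpl39l had 3 mice with 1 or 2 reads and 3 with 0, and Rps27rt, a single-exon copy whose coding sequence was 100% identical to that of Rps27, had 10 to 28 reads per mouse. The heart and muscle gene Rpl3l had 8, 11 and 8 reads in control mice and 6, 5 and 5 in ELS mice. These groups, with means of 0.310 CPM in control and 0.159 CPM in ELS mice, did not overlap, as was so for 8.28% of all genes tested. In a fit to all genes with a read the smallest unadjusted p of the 85 ribosomal protein genes was 0.148 (adjusted p = 1, edgeR). The largest absolute log2 fold change of these 85 was 0.94. Rps27l, a p53 target, shared 76.1% of its 255 coding bases with Rps27, and Rpl36al 87.9% of its 321 with Rpl36a. The first 60 coding bases of both pairs (GENCODE M21 on GRCm38) are shown because the differences, in capitals in the paralog, are what lets reads be assigned to one gene of a pair. There are 18 differences in this stretch of Rps27l and 11 in that of Rpl36al.
Rps27: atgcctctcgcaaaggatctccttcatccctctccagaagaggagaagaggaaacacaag
Rps27l: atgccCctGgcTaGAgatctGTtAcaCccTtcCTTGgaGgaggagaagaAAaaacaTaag
Rpl36a: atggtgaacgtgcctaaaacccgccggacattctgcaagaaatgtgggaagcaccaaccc
Rpl36al: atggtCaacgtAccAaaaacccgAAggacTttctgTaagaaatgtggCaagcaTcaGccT

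Rps27l had the highest fold change and the largest spread of its own. It had 12.4, 13.3 and 17.6 CPM in control mice and 15.5, 16.6 and 13.96 CPM in ELS mice, from 376 to 581 reads per mouse. Its log2 fold change was 0.090 (standard error 0.128, unadjusted p = 0.496, adjusted p = 1 in edgeR). After the mouse medians were taken off, its level in ELS mouse 2 was 0.29 above its own mean on the log2 scale. The ratio of Rps27l to Rps27 per kilobase was 0.0440, 0.0439 and 0.0464 in control mice and 0.0483, 0.0580 and 0.0427 in ELS mice. ELS mice held both the highest and the lowest ratio, and the groups overlapped (exact permutation test, two-sided, p = 0.4, adjusted p = 0.9 over 4 ratios, smallest p that 3 against 3 mice allow 0.1).

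The other 3 ratios gave exact permutation p of 0.5 for Rpl36al to Rpl36a, 0.9 for Rpl22l1 to Rpl22 and 0.7 for Rpl7l1 to Rpl7 (two-sided, adjusted p = 0.9 each). Rpl22l1 stood at 0.717 ± 0.0637 of Rpl22 per kilobase in control mice and at 0.721 ± 0.00341 in ELS mice (SD, n = 3 each), which is the one pair where the paralog came near the level of its core gene. Rpl36al stood at 0.217 ± 0.00979 and 0.228 ± 0.0174 of Rpl36a, and Rpl7l1 at 0.160 ± 0.00807 and 0.162 ± 0.00756 of Rpl7. Exons of another gene on the same strand cover 63.1% of Rpl36al, so its counts are uncertain, as are those of Rps10 (91.6%), Rpl24 (71.5%) and Rpl13a (59.3%). Rps19bp1 had means of 18.0 ± 1.92 CPM in control and 17.4 ± 0.916 CPM in ELS mice.

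Leaving out control mouse 3 moved all 82 genes to a higher mean in ELS mice (50.2% of all genes), with log2 fold changes from 0.0048 for Rps15a to 0.25 for Rps27l and a median of 0.11. The ratio of the 60S to the 40S sum was 0.547% higher in ELS than in control mice with all 6 mice and differed by -0.220% without control mouse 3. In the fit without it 10 of 82 genes (12.2%) had an unadjusted p under 0.05, against 11.7% of all genes, and 0 were called, against 0.219% of all genes. The 10 were Rpl13a, Rpl22l1, Rpl29, Rpl31, Rpl37a, Rps7, Rps14, Rps26, Rps27l and Rps29, named after their values were seen. Their share was that of the background. The smallest p was that of Rpl13a, one of the genes overlapped by another and also known as part of a complex that silences mRNAs in inflammation, at 0.00354 (adjusted p = 0.195 by edgeR, log2 fold change 0.23). Rpl13a had 77.4 and 79.1 CPM in control mice 1 and 2, 111 CPM in control mouse 3, and 94.3, 86.1 and 94.7 CPM in ELS mice. Without control mouse 1 the picture turned round, with 2 of 82 genes higher in ELS mice and a median log2 fold change of -0.087. The median was also above 0, at 0.039, without ELS mouse 2, and below 0 without any one of the remaining mice.

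Fau and Gnb2l1, outside the naming rule, were also highest in control mouse 3. Fau, made as a fusion with a ubiquitin-like protein, had 150, 152 and 194 CPM in control mice and 170, 147 and 167 CPM in ELS mice. Gnb2l1, a scaffold on the 40S head, had 195, 211 and 251 CPM in control mice and 229, 204 and 226 CPM in ELS mice. Their log2 fold changes were -0.036 and 0.0040.

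Other gene lists of translation and energy supply were set beside these genes. None of their genes was called. Control mouse 3 was highest in 73 of 81 genes for subunits of oxidative phosphorylation (90.1%), in 62 of 76 genes for mitochondrial ribosomal proteins (81.6%) and in 14 of 22 further genes with TOP mRNAs (63.6%). It was highest in 29 of 52 translation factor genes (55.8%), 22 of 61 ribosome biogenesis genes (36.1%), 7 of 28 genes of the mTORC1 pathway (25%) and 1 of 10 S6 kinase family genes. The share in the last 3 lists was nearer to, or below, the 25.2% of all genes. Their median log2 fold changes lay between -0.020 and 0.054. At an unadjusted p under 0.05 there was 1 gene for oxidative phosphorylation, lower in ELS mice (2.34% of all genes), and 1 of the S6 kinase family, higher in ELS mice (1.89% of all genes), and 0 in the other 5 lists. The first was Cox6a2, a muscle-type subunit of cytochrome c oxidase, with 6.498, 5.88 and 4.75 CPM in control mice and 4.77, 3.80 and 3.69 CPM in ELS mice (log2 fold change -0.48, unadjusted p = 0.0142, adjusted p = 1 by edgeR), named after its value was seen.

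Genes with the smallest p of these lists were looked at one by one. Among translation factors, Eif2b4, a subunit of the exchange factor that recharges eIF2, had 30.4, 27.1 and 31.7 CPM in control mice and 26.5, 25.6 and 27.9 CPM in ELS mice (log2 fold change -0.16, unadjusted p = 0.0847). In ribosome biogenesis, Mrto4, needed to assemble the stalk, had 31.5, 32.9 and 37.4 CPM in control mice and 31.8, 27.9 and 30.1 CPM in ELS mice (log2 fold change -0.18, unadjusted p = 0.0565). Their groups overlapped. Utp4, of the small subunit processome, had 28.5, 28.8 and 29.8 CPM in control mice and 25.8, 26.9 and 26.1 CPM in ELS mice (log2 fold change -0.14, unadjusted p = 0.0729), and its groups did not overlap. In the mTORC1 pathway, Rragb, a GTPase that brings mTORC1 to the lysosome, had a log2 fold change of 0.13 (unadjusted p = 0.0913), and Eif4ebp2, the main brake on cap binding in brain, one of -0.11 (unadjusted p = 0.113). Rps6ka5, a nuclear kinase of the S6 kinase family, had means of 23.3 ± 1.496 and 26.6 ± 1.70 CPM (SD, n = 3 each, log2 fold change 0.19, unadjusted p = 0.0463). The adjusted p of all 6 was 1 by edgeR. Without control mouse 3 their log2 fold changes had the same sign, at -0.11 for Eif2b4, -0.11 for Mrto4, -0.12 for Utp4, 0.19 for Rragb, -0.15 for Eif4ebp2 and 0.23 for Rps6ka5.

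The mitochondrial ribosome and the other TOP mRNAs had no gene at an unadjusted p under 0.05. Mrps35, of the small mitochondrial subunit, had 23.0, 25.5 and 25.7 CPM in control mice and 21.9, 21.0 and 22.8 CPM in ELS mice (log2 fold change -0.18, unadjusted p = 0.0521, adjusted p = 1 by edgeR). Mrpl51, of the large mitochondrial subunit, had 38.3, 41.7 and 41.4 CPM in control mice and 37.6, 35.1 and 37.3 CPM in ELS mice (log2 fold change -0.14, unadjusted p = 0.0665, adjusted p = 1 by edgeR). The groups did not overlap in either gene, and both were named after their values were seen. Among the other TOP mRNAs the smallest p was that of Pabpc1, the poly(A)-binding protein, with means of 197 ± 2.89 and 209 ± 10.4 CPM (SD, n = 3 each, log2 fold change 0.084, unadjusted p = 0.218, adjusted p = 1 by edgeR), and its groups overlapped. The genes next in p in 3 of the lists were Eif1b, an initiation factor, with a log2 fold change of -0.12 (unadjusted p = 0.138), Eif3f, a subunit of initiation factor eIF3 with a TOP mRNA, with one of -0.060 (unadjusted p = 0.395), and Rps6kc1 of the S6 kinase family, with one of -0.082 (unadjusted p = 0.264), each with an adjusted p of 1 by edgeR.

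**Figure D5:**
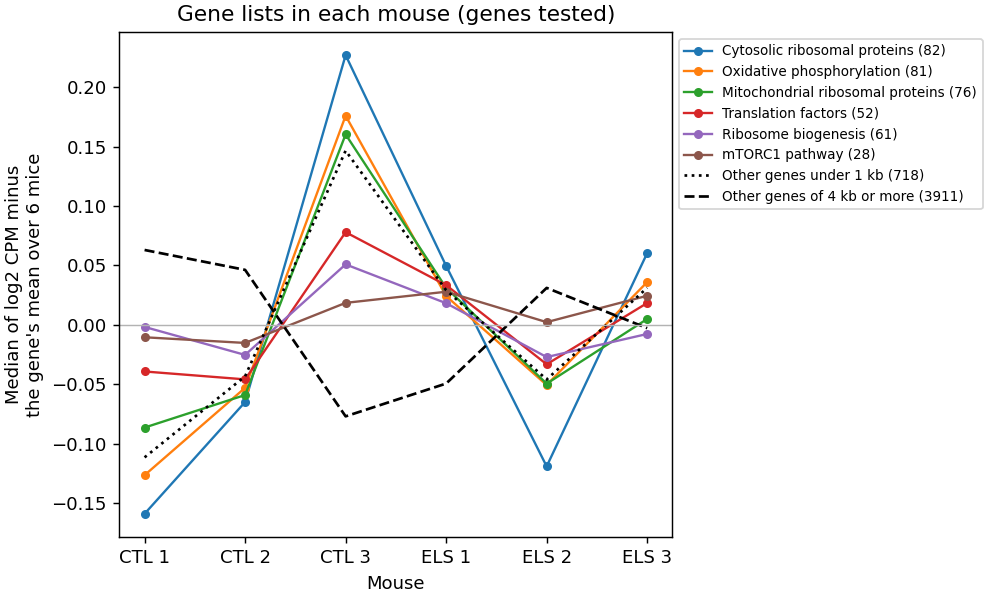
Median over genes of the deviation of log2 CPM from the gene's mean over 6 mice, for each gene list (colour, number of genes in brackets) and for other genes with transcripts under 1 kb (dotted) and of 4 kb or more (dashed); lines only join the values of one list. Cytosolic ribosomal protein genes have the widest swing, up to 0.23 in control mouse 3, short genes swing the same way, up to 0.15, and long genes the opposite way, to -0.077.

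Several other measures moved with this order of mice. The transcripts of the tested genes are short, with a median of 705 bases against 2961 for other genes, and 64 of 82 (78%) are under 1000 bases against 5.75% of the others. Control mouse 3 was highest in 64.1% of the 718 other genes under 1000 bases and in 8.28% of the 3911 of 4000 bases or more. Other short genes had median deviations of -0.11, -0.043 and 0.15 in control mice and 0.029, -0.046 and 0.031 in ELS mice. Within the ribosomal protein genes, the 18 with transcripts of 1000 bases or more had a median deviation of 0.20 in control mouse 3, against 0.24 for the 18 under 500 bases, and control mouse 3 was highest in 18 of 18 of the longer ones. The part of transcript length in the order of mice was not tested further.

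The summed levels of cell type markers also differed between mice. The 8 oligodendrocyte markers summed to 6200, 6329 and 8148 CPM in control mice and 7231, 6254 and 6832 CPM in ELS mice, the same highest and lowest mice as for the ribosomal protein sum. The 5 blood markers summed to 51.0, 59.8 and 85.2 CPM in control mice and 79.8, 52.6 and 64.4 CPM in ELS mice. The 7 striatal markers in the table, of tissue that borders PFC in a dissection, summed to 244, 262 and 467 CPM in control mice and 443, 288 and 316 CPM in ELS mice. In each of these 3 sums control mouse 3 was the highest and control mouse 1 the lowest, and ELS mouse 2 was the lowest ELS mouse. Gene by gene the order was less even. Control mouse 3 was highest in 5 of 8 oligodendrocyte, 4 of 5 blood and 3 of 7 striatal markers, the median deviation was lowest in ELS mouse 2 for oligodendrocyte and blood markers (-0.12 and -0.33), and for striatal markers it was 0.58 in ELS mouse 1 against 0.57 in control mouse 3. Neuronal markers ran the other way in part, at 14604, 14721 and 13999 CPM in control mice and 13326, 14499 and 14625 CPM in ELS mice. Astrocyte markers ranged from 6561 to 6720 CPM in control and from 5922 to 6810 CPM in ELS mice, microglial markers from 336 to 360 and from 347 to 369, endothelial markers from 203 to 231 and from 207 to 245, and choroid plexus markers from 3.36 to 4.05 and from 3.72 to 5.67. The part of these cell types in the order of mice was not tested.

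When libraries were instead scaled to the summed counts of the 82 genes, a choice made after seeing the data, each gene was compared with the rest of its own pool. The log2 fold changes then ran from -0.082 for Rpl39 to 0.11 for Rps27l, the smallest unadjusted p was 0.449, and 0 of 82 genes had one under 0.05, against 1.22% of all genes under this scaling.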

How the data were processed

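After trimming, the authors mapped the reads to mm10 with STAR (2.7.1a in the submitters' processing notes, and another version in the study's methods) and assigned unique hits to genes with HTSeq (0.9.1 in these notes). They deposited whole-number counts per symbol and mouse, neither normalized nor pooled. The kit was TruSeq stranded mRNA by the labels and KAPA by the study's methods. The annotation release and the strand setting of the counting are not given in the sources used here. ELS columns, named for social isolation, were matched to ELS mice by that term and number.

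Genes that reached 1 CPM in each control mouse or in each ELS mouse were fitted in R 4.3.3 with edgeR 4.0.16 (TMM factors, quasi-likelihood test, condition as the only term) and adjusted by the Benjamini-Hochberg method. CPM are TMM-scaled. DESeq2 1.42.0, limma 3.58.1 (voom), the likelihood ratio test, other scalings, other filters, a fit with a replicate block and fits without 1 mouse were alternatives, and the fits were tested on simulated data. GENCODE M21 on GRCm38, the assembly of mm10, held 89.0% of symbols and all 86 ribosomal protein genes. Mice are separate animals, and each pair within a group differed by more than sampling noise (chi-square per degree of freedom of at least 6.39). The genes and lists were chosen with earlier results of these data known. Genes were named if among the 6 smallest p or the 3 highest or lowest fold changes or levels per kilobase. Others were named for a role or as paralogs. The 2 with the smallest p were named for translation factors, other TOP mRNAs, ribosome biogenesis, the mTORC1 pathway and the S6 kinase family. Some more, such as Cox6a2, Mrps35 and Mrpl51, were named after their values were seen. A further gene of the lists is not reported here.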

Additional observations from a re-analysis of the deposited data

How the results depend on the processing

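No ribosomal protein gene was called under any alternative, including an adjusted p under 0.1 or no fold change threshold. The count at an unadjusted p under 0.05 was 0 under every alternative except without control mouse 3, where it was 10, so it ran from 0 to 10 with a mouse left out. The median log2 fold change then ran from -0.087 to 0.11 and the difference in summed level from -5.83% to 7.498%, with the extremes without control mice 1 and 3. Each move was smaller than the pooled SD between mice, 0.159 on the log2 scale and 10.9% for the summed level. That SD includes the mouse left out, so this comparison could not show that the result is stable. Genes higher in ELS mice numbered 44 with upper-quartile factors (median 0.0065, and 0.0065 over all genes) and 42 with limma-voom (median 0.0018, and -0.0026 over all genes), against 32 with TMM (median -0.0047, and -0.0046 over all genes). The upper-quartile shift was thus one of all genes alike. Same-numbered mice are different animals, and their deviations correlated at -0.12, 0.21 and -0.031. These values do not show a pairing by number, and they are too few to exclude one. With a replicate block, 0 genes were called, 0 had an unadjusted p under 0.05, 42 were higher and the median was 0.0016. Whether more mice or more reads would narrow the intervals was not tested, and genes with few reads, such as Rpl3l, are limited by depth as well.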
